A study of Bos taurus with 13 samples.

Results

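The miRNAs described here are the high-numbered bovine miRNAs, those whose name has the form bta-miR-N with a number at or above that of bta-miR-2284, with or without a letter or an ending for the hairpin arm. Of the 311 miRNAs listed for any library, 63 had such a name. Of these 63, 19 belonged to the miR-2284 and miR-2285 group. miRBase, the registry of miRNA names, numbers miRNAs in order of entry, so the rule selects late entries, and the name alone does not show that a miRNA is limited to ruminants. No sequence was at hand against which this could be checked.

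MiRNAs are short RNAs that are cut from a hairpin precursor, loaded into an Argonaute protein and guided to mRNAs by a short seed near their 5′ end. The hairpin has a 5p and a 3p arm, and the arm that is kept usually outnumbers the other. MiR-2284 and miR-2285 form a large family of closely related hairpins described in cattle and other ruminants, and most of its members have no established function in the follicle. Extracellular vesicles (EVs) are membrane-bound particles released by cells, and those of follicular fluid, which surrounds the oocyte, carry miRNAs.

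EV-coupled miRNAs were sequenced from 13 pools of follicular fluid of female Holstein Friesian cattle, drawn by ovum pick-up from large follicles, with 1 library per pool. Cows between weeks 5 and 10 post-calving had been classed by serum metabolites, body weight curves and calculated energy balance. Transient cows (TCs), whose energy balance passed from negative to positive, gave 3 pools at weeks 5 and 6 from 11 cows and 3 pools at weeks 9 and 10 from 7 cows. Always negative cows (ANCs) and always positive cows (APCs) each gave 2 pools from 2 cows at weeks 5 and 6. Heifers, which had not calved and were in positive energy balance, gave 3 pools from 8 animals. No animal carried an experimental treatment, and the ages are not given in the sources used here. Which animals entered which pool was not stated, so p-values measure the spread between pools, and TC pools of both times may hold the same cows.

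The deposited values gave back 145030 to 421435 reads per library, with a median of 327359. All libraries of a group listed the same miRNAs, and a miRNA outside a group's list was taken as unknown and not as 0. Levels below are CPM, the reads scaled to a library total of 1000000 after trimmed mean of M-values (TMM) scaling over the 262 miRNAs listed for all 5 groups. Of the high-numbered miRNAs, 45 were listed for all 5 groups. A count of 3 reads, taken as the smallest visible amount, stood at 7.30 to 20.1 CPM, and this floor covers counting error only. A miRNA was called by limma on log2(CPM + 5) where its log2 fold change was 1 or more in size, its p-value was below 0.05 and its adjusted p-value did not exceed 0.25, which are the thresholds of the study. Adjusted p-values were computed by the Benjamini-Hochberg method over all miRNAs tested in a comparison. An exact two-sided permutation test of a single miRNA cannot go below 0.333 with 2 pools against 2, or below 0.1 with 2 or 3 pools against 3.

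The high-numbered miRNAs were a small part of the vesicle cargo, and few of them supplied most of it. The 45 listed for all groups held 1.44% to 2.50% of the reads of a library. Their median level was 59.4 CPM, against 470.2 CPM for the other 217 miRNAs listed for all groups. Of the 45, 4 stood at 1000 CPM or more, 10 between 100 and 1000 CPM and 31 under 100 CPM, of which 7 had a mean under the highest floor. The miR-2284 and miR-2285 family held 52.8% of all reads of the 63 miRNAs, and those from bta-miR-6119-3p to bta-miR-6529 held 27.0%.

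**Figure D1:**
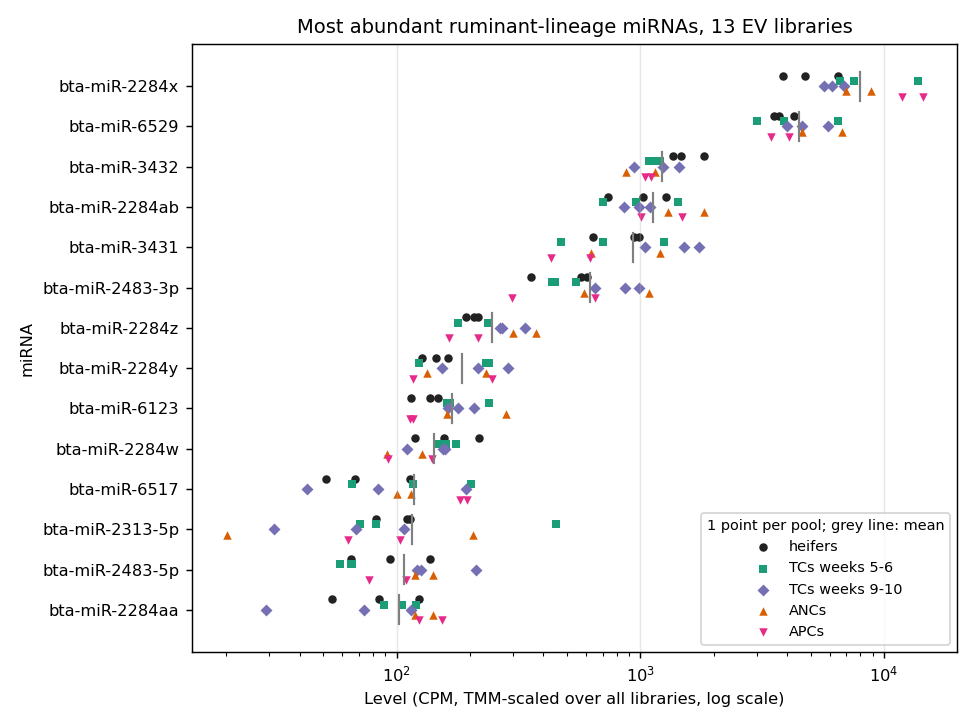
The 14 high-numbered miRNAs with a mean of at least 100 CPM are on the vertical axis, and their level in each of the 13 pools is on a logarithmic horizontal axis (CPM), with symbols for the 5 groups and a grey line at the mean. Bta-miR-2284x and bta-miR-6529 lie apart at the top, and the 2 APC pools of bta-miR-2284x are at 11799 and 14391 CPM.

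Bta-miR-2284x was the most abundant of them, with 7970 ± 3336 CPM (SD, n = 13), which gave it rank 28 among the 262 miRNAs. Its level was 4754, 3850 and 6477 CPM in the 3 heifer pools. It stood at 7526, 6574 and 13813 CPM in the TC pools of weeks 5 and 6, and at 5652, 6864 and 6096 CPM in those of weeks 9 and 10. The ANC pools had 6988 and 8824 CPM and the APC pools 11799 and 14391 CPM. Both APC pools and 1 TC pool were above all the others, and the heifer pools did not overlap with those of the ANCs, the APCs or the TCs at weeks 5 and 6. In 12 of 13 libraries it was the leading high-numbered miRNA, and it supplied 32.6%, 27.9% and 38.4% of their reads in the heifer pools, and 52.3% and 62.6% in the APC pools.

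Bta-miR-6529 followed with 4478 ± 1173 CPM (SD, n = 13) and was the leading one in the remaining library, the first TC pool of weeks 9 and 10. Its pools ranged from 3015 CPM in a TC pool of weeks 5 and 6 to 6711 CPM in an ANC pool. The heifer pools held 3711, 3535 and 4259 CPM, inside the range of the TC pools of weeks 5 and 6. Next came bta-miR-3432 at 1223 ± 253 CPM, bta-miR-2284ab at 1128 ± 320 CPM, bta-miR-3431 at 937 ± 404 CPM and bta-miR-2483-3p at 622 ± 236 CPM (SD, n = 13 each). Bta-miR-2284ab differed from bta-miR-3432 and from bta-miR-3431 in mean level by less than the SDs over pools. Bta-miR-2284z had 246 ± 61.7 CPM and bta-miR-2284y 186 ± 57.9 CPM. The steadiest of the 45 was bta-miR-3432, with a coefficient of variation of 20.7% over the 13 pools. Bta-miR-2313-5p was among the least steady, at 94.8%, and its 449.8 CPM in the third TC pool of weeks 5 and 6 stood far above its next highest pool, an ANC pool at 206 CPM.

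In the current bovine RefSeq gene table (assembly ARS-UCD2.0), which is a later build than the one the reads were mapped to and was used for names only, all 63 miRNAs had a gene. There, 191 of 1032 miRNA genes (18.5%) carried a miR-2284 or miR-2285 name. Of the 63, 10 had more than 1 gene copy, among them 7 of the 19 of the miR-2284 and miR-2285 family, and bta-miR-2284y and bta-miR-2284z had 7 copies each. Reads of such copies cannot be told apart by origin. A copy of 8 of the 63 overlapped another miRNA gene, among them bta-miR-6529, bta-miR-2284y and bta-miR-2284z. Whether their reads could be told apart from those of the overlapping gene was not tested, since no sequences were used. For 51 of the 63, at least 1 copy lay within the bounds of a protein-coding gene. Bta-miR-2284x lay in TIAM1, an activator of the GTPase RAC1, and bta-miR-6529 in GSK3B, a kinase of insulin and WNT signalling. Bta-miR-6518 lay in ADM, the gene of the vasoactive peptide adrenomedullin, bta-miR-6520 in EP400, a subunit of a chromatin remodelling complex, and bta-miR-2387 in GTF2IRD1, a transcription factor. Bta-miR-2366 lay in MAP1A, a microtubule-associated protein, bta-miR-6517 in DNAAF2, an assembly factor of ciliary dynein arms, and bta-miR-6120-3p in CSNK1G2, a casein kinase. The table gives no strand, so a place inside a gene is a position only.

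The comparison of APCs with heifers addressed animals that were all in positive energy balance. APCs had calved and were lactating and heifers had not calved, so calving, lactation and any difference in age cannot be told apart. Of 32 high-numbered miRNAs tested, 5 were higher in APCs and 0 were lower, where 12.4% of all 233 miRNAs tested were called in either direction, 9.44% higher and 3% lower. Those called were bta-miR-2284x, bta-miR-2366, bta-miR-6517, bta-miR-6518 and bta-miR-6520. The groups did not overlap for 10 of the 32, where 36.1% of all 233 did not overlap. Of the 47 listed for both groups, 15 did not pass the filter on low reads.

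Bta-miR-2284x rose by a log2 fold change of 1.56 ± 0.37 (SE, limma adjusted p = 0.0678), in 2 of 2 APC pools against 3 heifer pools. On total reads in place of TMM the change was 0.97 and was not called, while the median of all tested miRNAs moved from 0.03 to -0.54. Bta-miR-6520 was at 34.6, 27.5 and 70.1 CPM in heifers and at 147.5 and 140.3 CPM in APCs, a change of 1.83 ± 0.48 (SE, limma adjusted p = 0.0825). Both APC pools were above every other pool of the study for this miRNA, the next being a TC pool of weeks 5 and 6 at 130.5 CPM.

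Bta-miR-6517 was at 114, 67.4 and 51.2 CPM in heifers and at 182 and 194 CPM in APCs (1.44 ± 0.42, SE, limma adjusted p = 0.116). Bta-miR-2366 was at 19.8, 22.5 and 51.2 CPM in heifers and at 89.2 and 100.2 CPM in APCs (1.69 ± 0.50, SE, limma adjusted p = 0.121). The groups did not overlap for either, although single TC pools reached 203 CPM of bta-miR-6517 and 158 CPM of bta-miR-2366. On total reads neither of these was called, nor was bta-miR-6518. Bta-miR-6517 was also not called with the replicate block (limma adjusted p = 0.255) or in 1 fit over all libraries (0.269).

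Of the 32 tested, 21 had a positive and 11 a negative log2 fold change, with a median of 0.15, while the median of all 233 was 0.03 and 50.6% of them were positive. Over the 9 members of the miR-2284 and miR-2285 family tested the median was 0.69. The summed level of the 15 family members listed for all groups was 5752 to 8550 CPM in heifers and 14300 to 16398 CPM in APCs. Without bta-miR-2284x it was 1562 to 2073 CPM and 2007 to 2501 CPM, so that the groups overlapped and most of the gap lay in 1 miRNA. All 5 calls were absent without the first heifer pool, the shallowest of the heifer libraries, and 2 of 32 were called without the second, against 21 of all 227. No share over all miRNAs is given for the run without the first, so that loss is no result about these miRNAs as a set. Without the first APC pool 8 of 38 were called, 5 higher and 3 lower, against 48 of all 245. Bta-miR-6518 was not among them (limma adjusted p = 0.262), and it was also not called without the second APC pool, nor was bta-miR-2366.

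**Figure D2:**
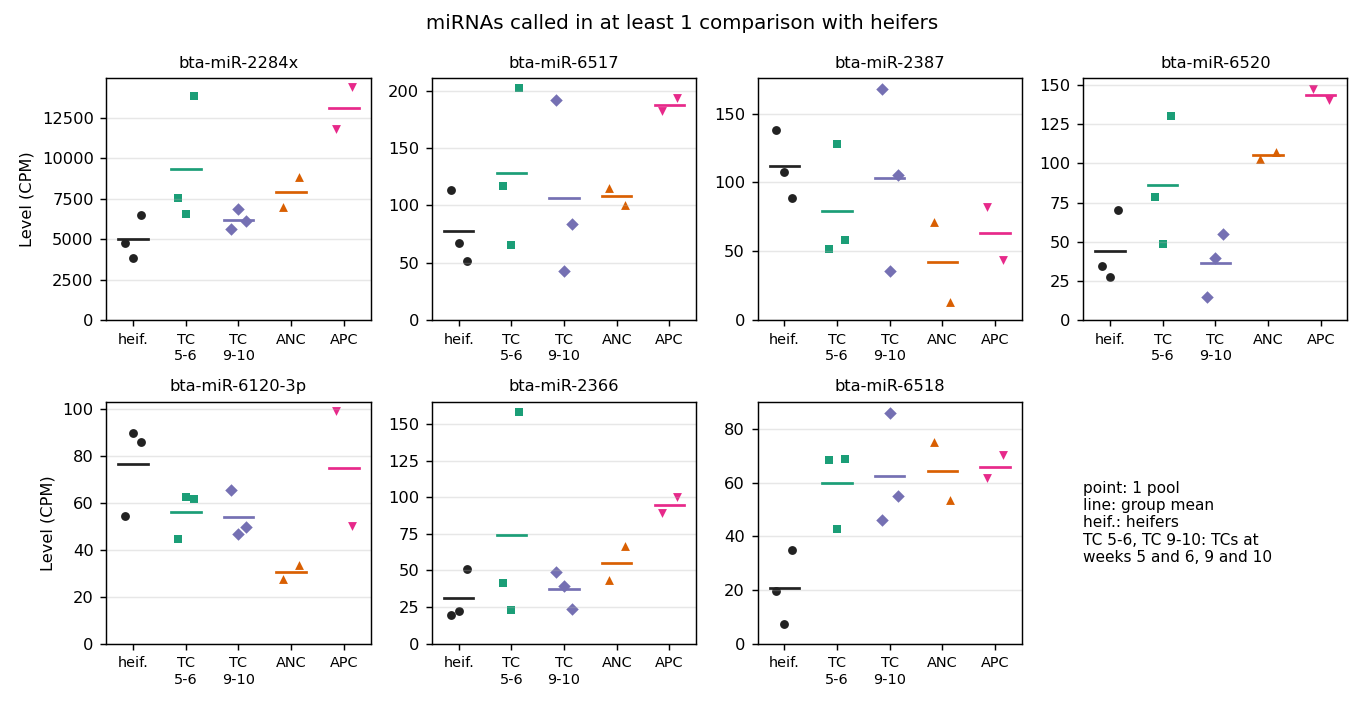
Levels (CPM, vertical axes from 0) of the 7 high-numbered miRNAs called in at least 1 comparison, with 1 point per pool and a line at each group's mean. For bta-miR-6518 the 3 heifer pools, at 7.49 to 35.04 CPM, lie below all 10 cow pools, at 42.7 to 86.1 CPM.

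ANCs, the metabolically stressed cows, were set against the same heifers. Of 29 tested, 4 were called, where 18.6% of all 215 miRNAs were called, 6.51% higher and 12.1% lower. Bta-miR-6518 and bta-miR-6520 were higher in ANCs, and bta-miR-2387 and bta-miR-6120-3p were lower.

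Bta-miR-6518 was at 19.8, 7.49 and 35.04 CPM in heifers and at 75.3 and 53.6 CPM in ANCs, a log2 fold change of 1.66 ± 0.63 (SE, limma adjusted p = 0.193). Bta-miR-6520 was at 103 and 107 CPM in ANCs and changed by 1.35 ± 0.52 (SE, limma adjusted p = 0.193). For both, every ANC pool was above every heifer pool, where the groups did not overlap for 47.4% of all 215 miRNAs.

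Bta-miR-2387 was at 138, 107 and 89.0 CPM in heifers and at 71.3 and 13.4 CPM in ANCs, a change of -1.56 ± 0.61 (SE, limma adjusted p = 0.194). The lower ANC value rests on 2 reads, in the shallowest library of the study, and the edgeR and DESeq2 tests on the recovered reads did not call it. Its change was -0.54 without that pool (limma adjusted p = 0.535) and -2.52 without the other ANC pool (limma adjusted p = 0.261), neither of them called. Bta-miR-6120-3p was at 54.4, 89.9 and 86.2 CPM in heifers and at 27.7 and 33.5 CPM in ANCs (-1.10 ± 0.48, SE, limma adjusted p = 0.225), from 7 and 5 reads in the ANC pools. It was not called with a pseudocount of 1 CPM, with the replicate block, with the day of RNA measurement in the fit, or without any 1 of the 5 pools.

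Of the 29, 21 had a positive log2 fold change and 8 a negative one, with a median of 0.58, against a median of 0.00 over all 215. The median of the 7 family members tested was 0.69, and bta-miR-2284x itself had 0.76 ± 0.38 (SE, limma adjusted p = 0.245), which is under the fold required. None of the 4 calls was made without the first heifer pool or without the second. The shares over all miRNAs in these runs are not given, so this is no result about these miRNAs as a set. The calls also did not hold without the first ANC pool, which leaves 1 pool in that group. Without the second ANC pool bta-miR-6520 was not called either.

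TCs at weeks 5 and 6, when their energy balance was negative, had 1 call among the 30 tested, against 6.96% of all 230 miRNAs, 1.74% higher and 5.22% lower. Bta-miR-6518 was at 68.5, 42.7 and 68.7 CPM in these pools and changed by 1.46 ± 0.49 (SE, limma adjusted p = 0.243). All 3 TC pools were above the 3 heifer pools, where the groups did not overlap for 22.2% of all 230 miRNAs. The edgeR test did not call it and DESeq2 called 2 of the 30, against 36 of all 230. It was not called without either the first or the third TC pool, or without the first or second heifer pool. Nor was it called with the day of RNA measurement in the fit or with no filter on low reads. Without the second TC pool 5 of 33 were called, against 46 of all 236, and without the third heifer pool 3 of 31, against 29 of all 233. Bta-miR-2284x had 0.84 ± 0.36 (SE, limma adjusted p = 0.276) and bta-miR-2285t, whose gene lies in the Fc receptor gene FCGR2B, had 1.16 ± 0.45 (SE, limma adjusted p = 0.252). The changes of the 30 ran from -0.70 to 1.46, 17 of them positive and 13 negative, where 47% of all 230 were positive.

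At weeks 9 and 10 no high-numbered miRNA was called by limma against heifers, 0 of 32, and 0% of all 227 miRNAs were called. Of the 32, 3 had an unadjusted p-value under 0.05, against 24 of all 227. EdgeR called 0 of the 32 and DESeq2 called 1, against 14 of all 227. Bta-miR-6518 was at 46.2, 86.1 and 55.1 CPM in these pools and had 1.56 ± 0.51 (SE, limma adjusted p = 0.357), a change similar in size to the other 3 groups and short of the adjusted threshold. Bta-miR-6520 had -0.26 ± 0.55 (SE, limma adjusted p = 0.891), with 14.6, 39.5 and 55.1 CPM. Without the second TC pool of weeks 9 and 10, 2 of 38 were called, against 25 of all 241.

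**Figure D3:**
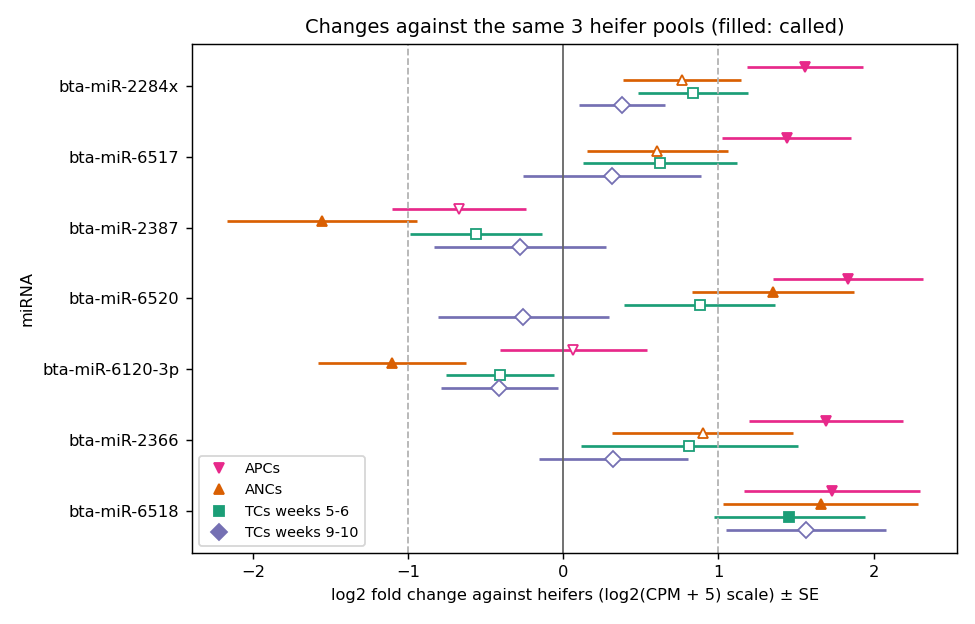
Log2 fold changes against heifers on the log2(CPM + 5) scale (horizontal axis, with SE) of the same 7 miRNAs, with 1 symbol per cow group and filled symbols for calls. All 4 comparisons use the same 3 heifer pools, and the 4 values of bta-miR-6518 lie between 1.46 and 1.73.

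The 4 comparisons share the heifer pools, so their similarity is no separate evidence. A fit over all 13 libraries set the mean of the 4 cow groups against heifers. It called 1 of the 38 high-numbered miRNAs tested, where 8.1% of all 247 miRNAs were called, 2.02% higher and 6.07% lower. Bta-miR-6518 was higher in cows by 1.54 ± 0.36 (SE, limma adjusted p = 0.0763), with 62.8 ± 13.5 CPM (SD, n = 10) in cows and 20.8 ± 13.8 CPM (SD, n = 3) in heifers. It was higher than every heifer pool in 10 of 10 cow pools, and was the only one of the 38 whose groups did not overlap, where 4.45% of all 247 did not overlap. Its reads were 4, 3 and 13 in the heifer pools and 8 to 24 in the cow pools, so it passed the filter on low reads through the cow pools. With no filter on low reads it was also called. With edgeR its adjusted p was 0.113 and with DESeq2 0.0336. Without the first heifer pool the change was 1.61 (limma adjusted p = 0.289) and without the second it was 1.1103 (limma adjusted p = 0.463), neither of which was called.

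Bta-miR-2284x had 0.81 ± 0.26 (SE, limma adjusted p = 0.139) in that fit and bta-miR-3432 -0.49 ± 0.21 (SE, limma adjusted p = 0.214), both under the fold required. Of the 38, 25 were positive and 13 negative, with a median of 0.22. Over all 247 the median was -0.03 and 48.6% were positive. With the replicate block 2 were called, against 29 of all 247, and without the third heifer pool 4, against 35 of all 245.

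Signals of other cell types differed between ANCs and heifers, and only some of them did so in the other cow groups. The summed level of 6 leukocyte miRNAs was 4868 to 6077 CPM in heifers, 745 to 1580 CPM in ANCs, 2144 to 3971 CPM in APCs, 2762 to 3063 CPM in TCs at weeks 5 and 6 and 1573 to 4820 CPM at weeks 9 and 10, with all 6 listed and none at 0. Bta-miR-122, the liver miRNA, was at 5369 to 17623 CPM in heifers and 329 to 2926 CPM in ANCs. The 7 epithelial miRNAs, all listed, summed to 16385 to 26019 CPM in heifers and 5150 to 8503 CPM in ANCs, and 2 of 3 erythroid miRNAs to 1717 to 3959 CPM and 131 to 1145 CPM. Bta-miR-202, known from gonads, was at 3410 to 6364 CPM in heifers and 7016 to 8014 CPM in ANCs. In APCs and in TCs at both times the epithelial, erythroid and bta-miR-202 ranges overlapped those of heifers. The APC pools held 5956 to 30235 CPM of epithelial and 2137.5 to 8934 CPM of erythroid miRNAs. Bta-miR-122 overlapped heifers in APCs (631 to 5858 CPM) and in TCs at weeks 5 and 6. At weeks 9 and 10 it was lower, at 2682 to 4185 CPM. The part of these signals in the results above was not tested.

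ANCs and APCs, at the same weeks and opposite in energy balance, differed in no call among the 27 tested by limma, edgeR or DESeq2, where 0% of all 207 were called. The rest of the 48 listed for both groups did not pass the filter on low reads. Among these was bta-miR-2285z, with 0 and 0 reads in ANCs and 9 and 11 in APCs, so it was not tested. The study reports a miR-2285 miRNA, named without a letter, as lower in ANCs than in APCs. Of the 27, 0 had an unadjusted p-value under 0.05, against 17 of all 207. Bta-miR-7857 had the most negative value, -1.44 ± 0.65 (SE, limma adjusted p = 0.535), and bta-miR-2284x had -0.69 ± 0.38 (SE, limma adjusted p = 0.553). The groups did not overlap for 12 of the 27, where 43.5% of all 207 did not overlap. With the replicate block 1 was called, against 28 of all 207, and without the first APC pool 3 of 31, against 36 of all 220.

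Between ANCs and TCs at weeks 5 and 6, 0 of 30 were called by limma, edgeR or DESeq2, as was 0% of all 225, and 1 of the 30 had an unadjusted p-value under 0.05, against 18 of all 225. That was bta-miR-2285t, at 23.8 and 26.8 CPM in ANCs and at 117, 59.7 and 155 CPM in TCs (-1.84 ± 0.54, SE, limma adjusted p = 0.399). Its groups did not overlap here, as was the case for 27.1% of all 225 miRNAs. The APC pools of bta-miR-2285t, at 17.2 and 223.8 CPM, were the lowest and the highest of all 13.

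Within TCs, weeks 9 and 10 were set against weeks 5 and 6, which spans the change from negative to positive energy balance. By limma, edgeR and DESeq2 0 of 29 were called, with 0% of all 224, and 2 of the 29 had an unadjusted p-value under 0.05, against 12 of all 224. Both came from 1 hairpin. Bta-miR-2483-5p was at 65.1, 65.4 and 58.4 CPM at weeks 5 and 6 and at 122, 125.5 and 213 CPM at weeks 9 and 10 (1.19 ± 0.44, SE, limma adjusted p = 0.573). Bta-miR-2483-3p was at 445.5, 543 and 433 CPM and then at 863, 649 and 987 CPM (0.81 ± 0.35, SE, limma adjusted p = 0.573). Both arms were higher in each later pool than in each earlier one, where the groups did not overlap for 13.4% of all 224 miRNAs. Without the second pool of weeks 5 and 6, 2 of 32 miRNAs were called, against 22 of all 228. Bta-miR-6520 had -1.17 ± 0.59 (SE, limma adjusted p = 0.573), so its difference between the times was not shown.

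Both arms were listed for all groups in 4 hairpins. In bta-miR-2483, from the X-linked adhesion gene TENM1, the 3p arm led in 13 of 13 libraries, and 14.7% of the reads of both arms were 5p. In the other 3 the 5p arm supplied most reads, with 83.4% in bta-miR-2313, 78.8% in bta-miR-2284t and 69.1% in bta-miR-2431. The 5p arm was ahead in 13 of 13 libraries for bta-miR-2313, in 12 for bta-miR-2284t with a tie in the first heifer pool, and in 10 for bta-miR-2431 with 2 libraries the other way. In bta-miR-6119, whose 3p arm was not listed for TCs at weeks 5 and 6, 84.5% of the reads in 10 libraries were 5p.

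**Figure D4:**
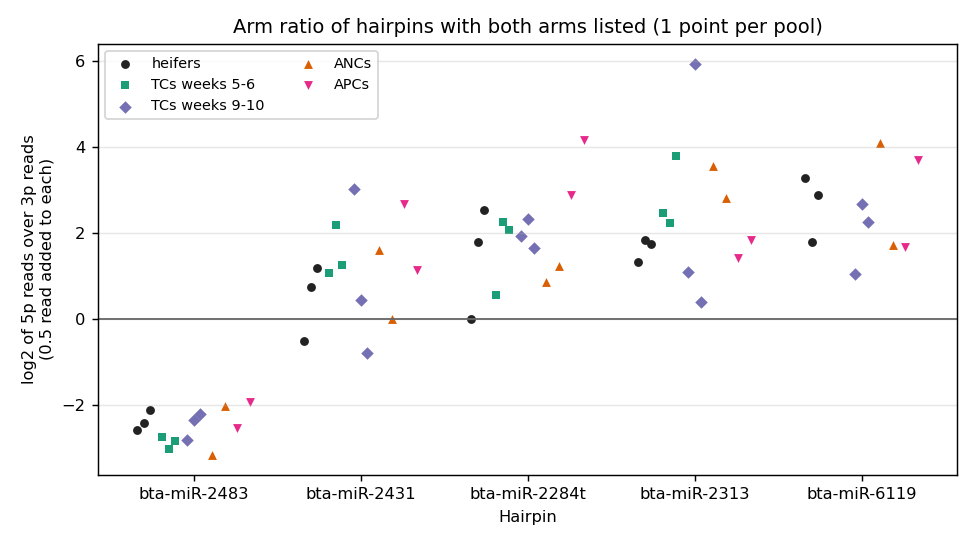
Log2 ratio of 5p to 3p reads (vertical axis, 0.5 read added to each arm) in every pool for 5 hairpins, with symbols for the groups and a line at 0. All 13 points of bta-miR-2483 lie below 0, between -3.18 and -1.93, and the points of the other hairpins lie mostly above it.

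The arm ratio was compared between the 10 cow pools and the 3 heifer pools for the 4 hairpins. In bta-miR-2483 the mean log2 ratio was -2.57 ± 0.42 (SD, n = 10) in cows and -2.38 ± 0.23 (SD, n = 3) in heifers, with p = 0.472 in the exact two-sided permutation test. In bta-miR-2284t it was 1.98 ± 1.04 and 1.43 ± 1.29 (exact p = 0.448), in bta-miR-2313 2.54 ± 1.59 and 1.62 ± 0.27 (exact p = 0.350), and in bta-miR-2431 1.25 ± 1.18 and 0.46 ± 0.89 (exact p = 0.297). All 4 had an adjusted p of 0.472, so no difference in arm use was shown. Apart from bta-miR-2483 these ratios rest on few reads of the lesser arm, 79 to 103 over all 13 libraries.

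Some high-numbered miRNAs had another miRNA gene within 10 kb in the RefSeq table. Bta-miR-3431 lay in GABRE, a subunit gene of the GABA-A receptor, close to the genes of bta-miR-224 and bta-miR-452. The levels of these 3 miRNAs varied together over the pools. Bta-miR-3431 was at 983, 946 and 642 CPM in heifers and at 703, 1254 and 474 CPM in TCs at weeks 5 and 6. It stood at 1739, 1044 and 1512 CPM in TCs at weeks 9 and 10, at 1200 and 629 CPM in ANCs and at 624 and 431 CPM in APCs. Against heifers its changes were 0.78 ± 0.34 (SE, limma adjusted p = 0.431) in TCs at weeks 9 and 10 and -0.54 ± 0.38 (SE, limma adjusted p = 0.50) in APCs, neither of them called.

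Over the 13 pools the levels of bta-miR-3431 and bta-miR-224, on the log2(CPM + 5) scale, had Pearson's r of 0.889 (permutation p = 0.00011, adjusted 0.00099) and Spearman's rho of 0.890 (permutation p = 8e-05, adjusted 0.00072). With bta-miR-452 r was 0.850 (permutation p = 0.0003, adjusted 0.00135) and rho 0.874 (permutation p = 0.0002, adjusted 0.0009). Without the 2 pools farthest from the median of bta-miR-3431, r was 0.831 and 0.822. After subtraction of group means r was 0.913 and 0.758, and over the 7 pools known to have been measured on the later day it was 0.814 and 0.818. The p-values treat the pools as independent, which the TC pools of both times may not be, and both levels of a pool share its scaling and depth.

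**Figure D5:**
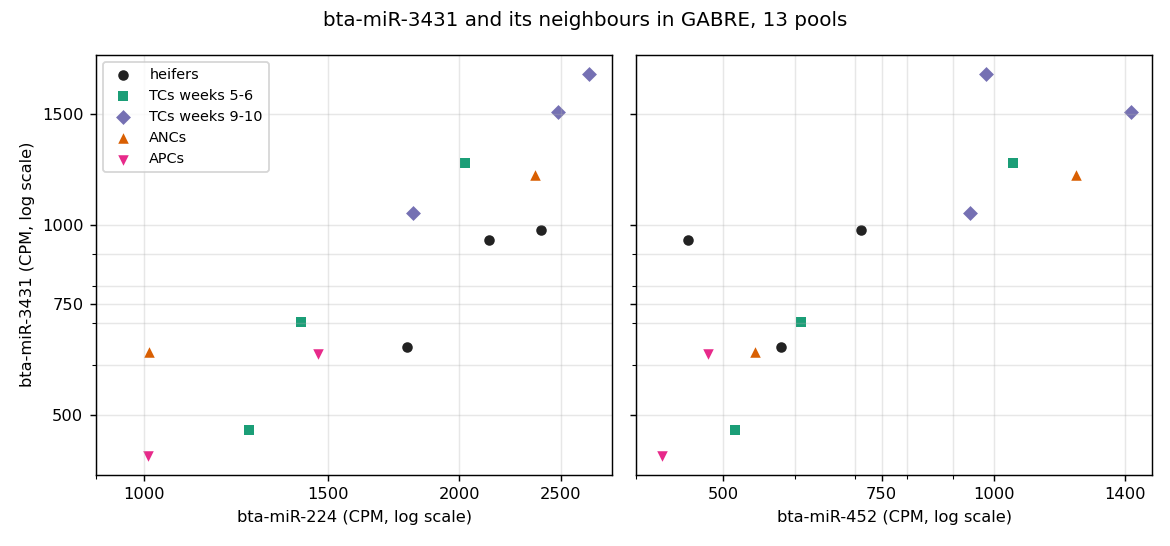
The level of bta-miR-3431 (vertical axis, CPM, logarithmic) against those of bta-miR-224 and bta-miR-452 (horizontal axes, CPM, logarithmic) in the 13 pools, with symbols for the groups. In both panels pools with more of the neighbour tend to have more bta-miR-3431, from an APC pool with 431 CPM of bta-miR-3431 to a TC pool of weeks 9 and 10 with 1739 CPM. Single pools depart from this, such as the second heifer pool, with 457 CPM of bta-miR-452 and 946 CPM of bta-miR-3431.

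In all, 9 such pairs were examined, and the adjustment is over these. The arms of bta-miR-2483 had r of 0.752 (permutation p = 0.00302, adjusted 0.00906) and rho of 0.736 (permutation p = 0.00537, adjusted 0.0161), and r was 0.675 without the 2 farthest pools. The other 6 pairs had r between -0.288 and 0.391, none with an adjusted permutation p under 0.4. These were the arms of bta-miR-2313, bta-miR-2284t and bta-miR-2431, the pair of bta-miR-2284y and bta-miR-2285o, and bta-miR-6123 with each arm of bta-miR-296.

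Of the 63, 18 were not listed for every group, and these had at most 22 reads in a library. They comprised 8 listed for 1 group, 5 for 2 groups, 3 for 3 groups and 2 for 4 groups. Bta-miR-2285z, listed for TCs at weeks 5 and 6, ANCs and APCs, had 5, 3 and 5 reads in the TC pools, 0 and 0 in the ANC pools and 9 and 11 in the APC pools. A count of 0 in the ANC pools allows up to 3 reads, which is 11.9 and 20.1 CPM, and the APC pools stood at 30.9 and 36.7 CPM. Its gene overlaps that of bta-miR-2285q inside SREK1, so reads of the pair may not have been separable, and it did not pass the filter on low reads. The study reports bta-miR-2285z as higher in APCs than in heifers. As it was not listed for heifers here, that comparison could not be made. Bta-miR-2284v, at 0 to 20.0 CPM, had 0 to 6 reads per library and was below the visible amount in most of them. Bta-miR-2426 had 0, 4 and 4 reads and bta-miR-2474 2, 4 and 0 reads, each in the heifer pools, and neither was listed for any other group. The study, which required a read in every replicate, names several high-numbered miRNAs as detected in APCs alone, bta-miR-2284v and bta-miR-2426 among them. Here bta-miR-2284v had reads in both APC pools and 0 in a pool of every other group. Bta-miR-2426 was not listed for APCs, which differs from the study, and its level there is unknown. The others so named were bta-miR-2284ac, bta-miR-2284k, bta-miR-2285ab, bta-miR-2285j, bta-miR-2285n, bta-miR-2285v, bta-miR-2382-3p, bta-miR-2400 and bta-miR-2436-5p. None of these was listed here for any group, which also differs from the study.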

How the data were processed

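Per the labels and the study's methods, QIAseq miRNA libraries were trimmed with cutadapt 1.11, aligned to UMD3.1 by Bowtie2 2.2.2 and annotated from miRBase by the authors. Whether molecular identifiers were counted is not given in the sources used here. The deposited values are CPM after TMM, 1 table per library. In 7 tables the authors' scaling brings the total above what CPM sums to, and these were treated as signal of the same make. Each value was a whole multiple of a step per library, and 3681 of 3681 gave whole reads within 0.1 read. Libraries of each comparison were rescaled with TMM (edgeR 4.0.16), filtered with filterByExpr (10 reads, 15 in total) and tested with limma 3.58.1 on log2(CPM + 5), the groups compared alone. The filter asks for about 10 reads at median depth in as many pools as the smallest group holds. A miRNA can therefore pass through 1 group alone. Among the calls, bta-miR-6518, bta-miR-2366 and, against ANCs, bta-miR-6520 passed through the cow pools. Bta-miR-2387 and bta-miR-6120-3p passed through the heifer pools. edgeR's quasi-likelihood test and DESeq2 1.42.0 on the recovered reads were alternatives, as were pseudocount, scaling, filter, threshold, a replicate block, the day of RNA measurement and single libraries left out. The day of RNA measurement set the first pool of each group against its other pools, so it follows from the replicate number and overlaps with the replicate block. It was not used in comparisons that include APCs, since no day was given for their second pool. Arm ratios used exact permutation tests. The fit was tested on simulated reads. The miRNAs and lists were chosen with earlier results of these data known. Those described singly were every miRNA called, the 8 most abundant, hairpins with both arms listed and a list of 9 fixed with the design. Others, such as bta-miR-2285t, bta-miR-7857 and the neighbours of bta-miR-3431, were named after their values were seen. Same-numbered pools of TCs at weeks 5 and 6 and heifers deviated together (r = 0.216 to 0.385 in 3 pairs), and the replicate numbers come from the labels. Host genes, gene copies, overlaps and miRNA genes within 10 kb were taken from the RefSeq gene table (ARS-UCD2.0), whose coordinates are not printed. Sequences were not used here.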

Additional observations from a re-analysis of the deposited data

Results flagged for a closer look

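Signals above 3 reads appeared for 8 miRNAs that were listed for 1 group alone and entered no comparison. The highest count in a library was 5 reads for bta-miR-2398 and 4 for bta-miR-2411-5p, both listed for TCs at weeks 9 and 10. It was 4 for bta-miR-2450a, 4 for bta-miR-2454-3p and 9 for bta-miR-6519, listed for TCs at weeks 5 and 6. It was 4 for bta-miR-2426, 4 for bta-miR-2474 and 5 for bta-miR-3956, listed for heifers. The gene of bta-miR-3956 lies within 10 kb of those of bta-miR-381 and of several miR-376 miRNAs. The groups, of 2 or 3 pools, are too small for a test of single pools that stand apart.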

How the results depend on the processing

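All calls were absent at an adjusted p of at most 0.05, with 0 high-numbered miRNAs in every comparison. For APCs against heifers total reads gave 3 calls, 1 higher and 2 lower, against 5 higher and 0 lower with TMM, while the calls over all 233 miRNAs were 63 and 29, and leaving out single pools gave 0 to 8. For ANCs against heifers leaving out single pools gave 0 to 4. For TCs at weeks 5 and 6 against heifers the count was 0 with edgeR, 0 with no filter, 0 with the day of RNA measurement in the fit, 2 with DESeq2 and 0 to 5 without single pools. For TCs at weeks 9 and 10 it was 1 with DESeq2 and 0 to 2 without single pools. The replicate block, which treats same-numbered pools as related, gave 1 call for ANCs against APCs and 2 for all cow groups against heifers. The other counts stayed within 1.5 times, although the calls of bta-miR-6517 in APCs and bta-miR-6120-3p in ANCs were lost. Deviations of same-numbered pools correlated at 0.216 to 0.385 for TCs at weeks 5 and 6 and heifers, and at 0.216 for ANCs and APCs. In the other comparisons of 2 groups they correlated between -0.167 and 0.188. Leaving out single pools gave 0 to 3 for ANCs against APCs, 0 to 0 for ANCs against TCs, 0 to 2 between the TC times and 0 to 4 for all cow groups against heifers. The arm ratio of bta-miR-2284t, cows minus heifers, was 0.55 and reversed to -0.16 without the first heifer pool, with a highest value of 1.09. Leaving out single pools gave 0.55 to 1.16 for bta-miR-2313, 0.30 to 1.15 for bta-miR-2431 and -0.29 to -0.07 for bta-miR-2483. No called miRNA changed sign under any alternative run. Most counts of calls in this section cover high-numbered miRNAs alone. They show how stable the counts are and are no result about these miRNAs as a set. The cause of these shifts was not tested. Depth limits what can be seen, since 31 of 45 miRNAs stood under 100 CPM and the lower counts of several calls are under 10 reads.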
